A study of Mus musculus with 8 samples.

Results

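Genes that mature beta cells keep low, often called disallowed genes, and genes linked to the loss of beta cell identity were followed in RNA from pancreatic islets of mice. The list held 10 genes taken by name, Ldha, Slc16a1, Hk1, Oat, Acot7, Pdgfra, Cxcl12, Igfbp4, Rest and Myc, and all 10 were among the 13725 genes of the deposited table. Of these, 7 had a mean above 0 log2 CPM (CPM being counts scaled to library size) over all libraries and were tested, as were 12231 genes in all. Slc16a1, Cxcl12 and Rest lay below that level and are given as values. The islets of both groups were from NOD females, mice prone to autoimmune diabetes, at 10 weeks of age. One group had received PAHSA (lipids in which palmitic acid is esterified to hydroxy stearic acids, spelled PASHA in the sample labels) and the other its vehicle, with no other allele or agent named. Each group had 4 libraries, vehicle replicates 1, 3, 4 and 5 and PAHSA replicates 1 to 4. The design text counts mice and the protocol speaks of islets pooled from 2 mice, so p-values measure the spread between libraries, whichever of these a library stands for.

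Recovered estimated counts ranged from 34461742 to 45236238 per library. Islet identity was plain in every library, with 143000 to 186000 CPM in the 22 beta cell genes listed and 60800 to 80900 CPM in 6 alpha cell markers. Digestive enzyme genes of the surrounding acinar tissue took 11300 to 45300 CPM in vehicle and 504 to 17000 CPM in PAHSA. Vehicle replicate 4 was highest and PAHSA replicate 4 lowest. Of the tested acinar genes 17 of 17 were lower in PAHSA, against 6229 of all 12231 genes tested. In such bulk RNA, fewer cells of a type and less RNA per cell cannot be told apart.

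A beta cell couples insulin release to glucose by taking up and burning the sugar in its mitochondria. Lactate dehydrogenase A, the lactate and pyruvate carrier MCT1 and the hexokinases of high affinity are held low, so that lactate or pyruvate from the blood does not set off release and the threshold for glucose stays high. Most other cells of the body use these genes, including the fibroblasts, vessel cells and immune cells of an islet, and they reappear in beta cells that lose their mature state.

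The sequence just before the start of 3 members is shown, because Ldha and Oat were the members whose groups did not overlap and Slc16a1 encodes the carrier that works with lactate dehydrogenase. RefSeq promoter windows on GRCm38.p6 matched 8 of the 10 members, and each run below is the 250 bases before the start, 5′ to 3′. Capitals mark CACGTG, the E-box that MYC binds with its partner MAX, and ACGTG and GCGTG, the cores to which hypoxia-inducible factors bind, each looked for on both strands. Every CACGTG also counts as ACGTG on both strands.
Ldha (first start), chr7:46845554-46845803, + strand: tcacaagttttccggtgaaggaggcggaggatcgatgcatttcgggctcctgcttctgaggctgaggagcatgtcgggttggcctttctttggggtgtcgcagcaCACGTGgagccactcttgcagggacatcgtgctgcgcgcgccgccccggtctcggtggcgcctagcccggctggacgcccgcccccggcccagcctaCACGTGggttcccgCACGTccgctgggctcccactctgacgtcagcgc
Oat, chr7:132576399-132576648, - strand: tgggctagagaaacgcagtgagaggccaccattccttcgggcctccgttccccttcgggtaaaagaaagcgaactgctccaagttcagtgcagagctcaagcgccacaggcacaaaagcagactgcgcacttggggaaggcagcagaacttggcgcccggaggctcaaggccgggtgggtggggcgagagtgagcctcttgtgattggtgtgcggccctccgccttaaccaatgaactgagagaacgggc
Slc16a1, chr3:104638414-104638663, + strand: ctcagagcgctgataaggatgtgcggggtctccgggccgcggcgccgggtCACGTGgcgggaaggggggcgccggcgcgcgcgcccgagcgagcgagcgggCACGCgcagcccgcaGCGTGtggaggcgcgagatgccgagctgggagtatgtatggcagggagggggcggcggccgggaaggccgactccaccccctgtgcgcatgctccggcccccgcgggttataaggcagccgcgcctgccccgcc
For Ldha RefSeq gives 2 starts, and the window of the first is printed. This first Ldha window held 2 CACGTG words, beginning 145 and 48 bases before the start, and 1 further ACGTG on the other strand beginning 34 bases before it. The window of the second Ldha start, chr7:46846832-46847081, held no CACGTG and no ACGTG, 1 GCGTG and 54.4% G and C. The bases just after the second start were found in 1 GENCODE M21 transcript of Ldha and those just after the first in 0. The Slc16a1 window held 1 CACGTG, 200 bases before the start, and 2 GCGTG. In the Oat window none of these words occurred. Of 32851 windows of the same length, 6.02% held CACGTG, 16.6% ACGTG and 28.2% GCGTG. The printed windows were rich in G and C, at 67.2% for the first Ldha start, 60.0% for Oat and 76.4% for Slc16a1 against a median of 52.4%. A match describes the letters only.

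Levels were compared between genes per kb of exon. In vehicle islets Ldha stood highest of the 10, at 116 ± 17.6 CPM per kb (SD, n = 4). Next came Oat at 26.9 ± 1.27 and Igfbp4 at 19.5 ± 5.67 CPM per kb, whose vehicle ranges touched at 25.3 to 27.9 and 12.3 to 25.4. Myc, Hk1 and Acot7 followed at 5.57 ± 1.81, 4.51 ± 1.56 and 3.96 ± 1.66 CPM per kb and did not differ beyond their spread. The lowest 4 were Slc16a1 at 0.689 ± 0.309, Pdgfra at 0.557 ± 0.418, Cxcl12 at 0.552 ± 0.501 and Rest at 0.169 ± 0.0529 CPM per kb. Among these, the ranges of Slc16a1, Pdgfra and Cxcl12 overlapped, and Rest overlapped with Pdgfra and Cxcl12.

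**Figure D1:**
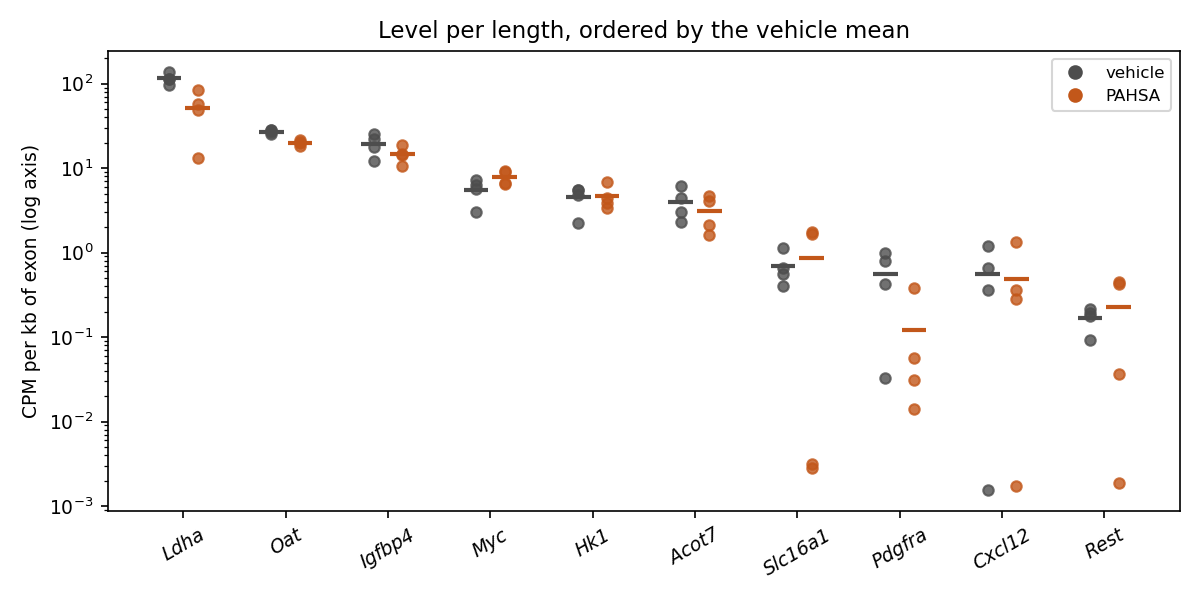
Level of each of the 10 genes in CPM per kb of exon on a log axis, ordered by the vehicle mean. Each point is a library and each bar the mean of 4. Ldha stood at 116 CPM per kb in vehicle and Rest, the lowest, at 0.169.

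The question of the comparison was which of these genes differed between PAHSA and vehicle islets. By limma, with Benjamini-Hochberg adjustment over all genes tested, 0 of the 7 tested members and 0 of all genes (0%) passed an adjusted p of 0.05, and the smallest adjusted p of any gene was 0.671. At an unadjusted p under 0.05, 894 genes differed, 369 higher and 525 lower in PAHSA. Ldha and Oat were among those lower, which held for 4.29% of all genes tested. No member was higher at that level, against 3.02% of all genes. The same 2 genes had all 4 PAHSA libraries below all 4 vehicle libraries, as did 1.95% of all genes, and in 0 members did all PAHSA libraries lie above, against 2.06%. Over the 7 tested members 5 differences were negative and 2 positive with a median of -0.40. Over all 12231 genes tested 6229 were negative and 6001 positive with a median of -0.006. These counts are the background for the direction counts of each list below. Pdgfra passed the filter on low values through its vehicle libraries, while its PAHSA mean was -1.05 log2 CPM, so its sign is no support for the list. The 3 members below the filter had a lower mean log2 CPM in PAHSA, but on the linear scale Slc16a1 and Rest had the higher mean there, at 0.857 ± 0.986 and 0.227 ± 0.241 CPM per kb (SD, n = 4).

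**Figure D2:**
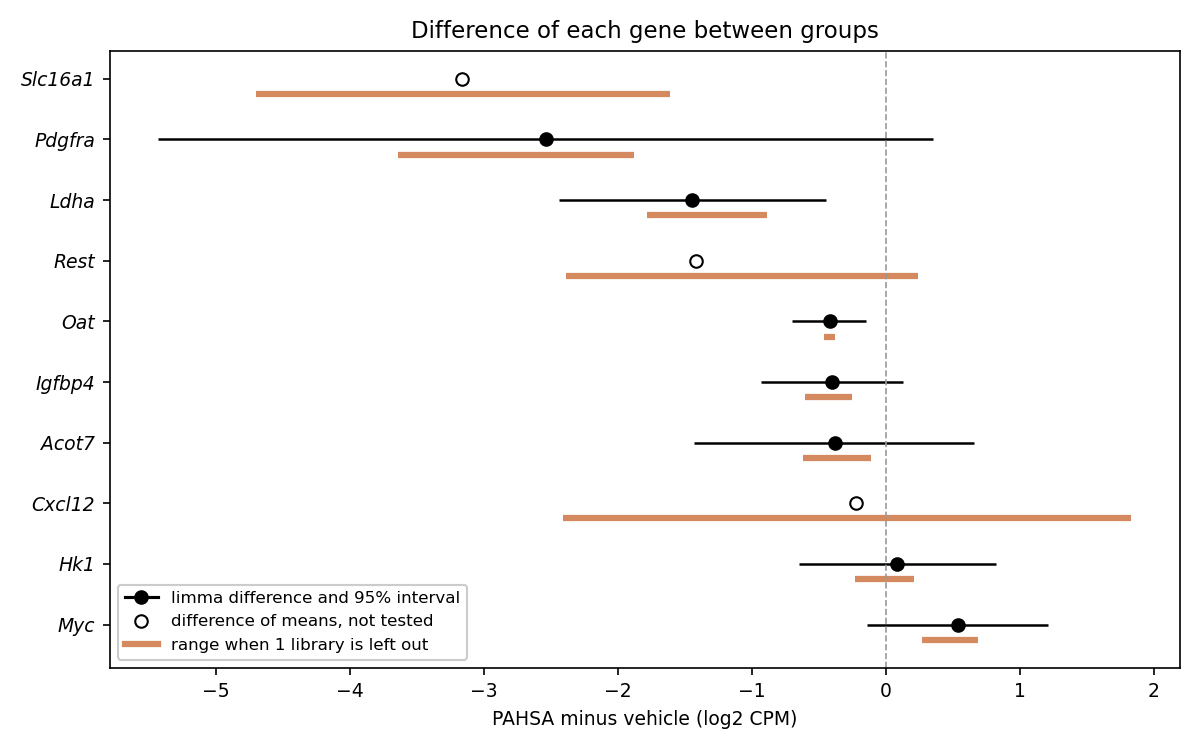
PAHSA minus vehicle difference in log2 CPM for each gene. Filled points with black lines are limma differences with their 95% confidence interval, open points are differences of means without a test, and coloured bars span the values when 1 library is left out. The intervals of Ldha (-2.44 to -0.45) and Oat (-0.70 to -0.15) lie below 0.

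Ldha (ENSMUSG00000063229, chromosome 7 from 46841475 to 46855627 in GRCm38) encodes the lactate dehydrogenase subunit that turns pyruvate into lactate. It was at 7.77, 8.04, 7.50 and 7.76 log2 CPM in vehicle replicates 1, 3, 4 and 5, and at 4.65, 6.78, 6.53 and 7.31 in PAHSA replicates 1 to 4. The groups did not overlap, but the gap was small, 0.19 between PAHSA replicate 4 and vehicle replicate 4, while PAHSA replicate 1 lay far below all others. The difference was -1.45 on the log2 scale (SE 0.45, 95% confidence interval -2.44 to -0.45; limma adjusted p = 0.671), that is 2.73-fold higher in vehicle. The two-sided exact permutation p was 0.0286, the smallest that 4 against 4 libraries allow. Without PAHSA replicate 1 the difference was -0.89.

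**Figure D3:**
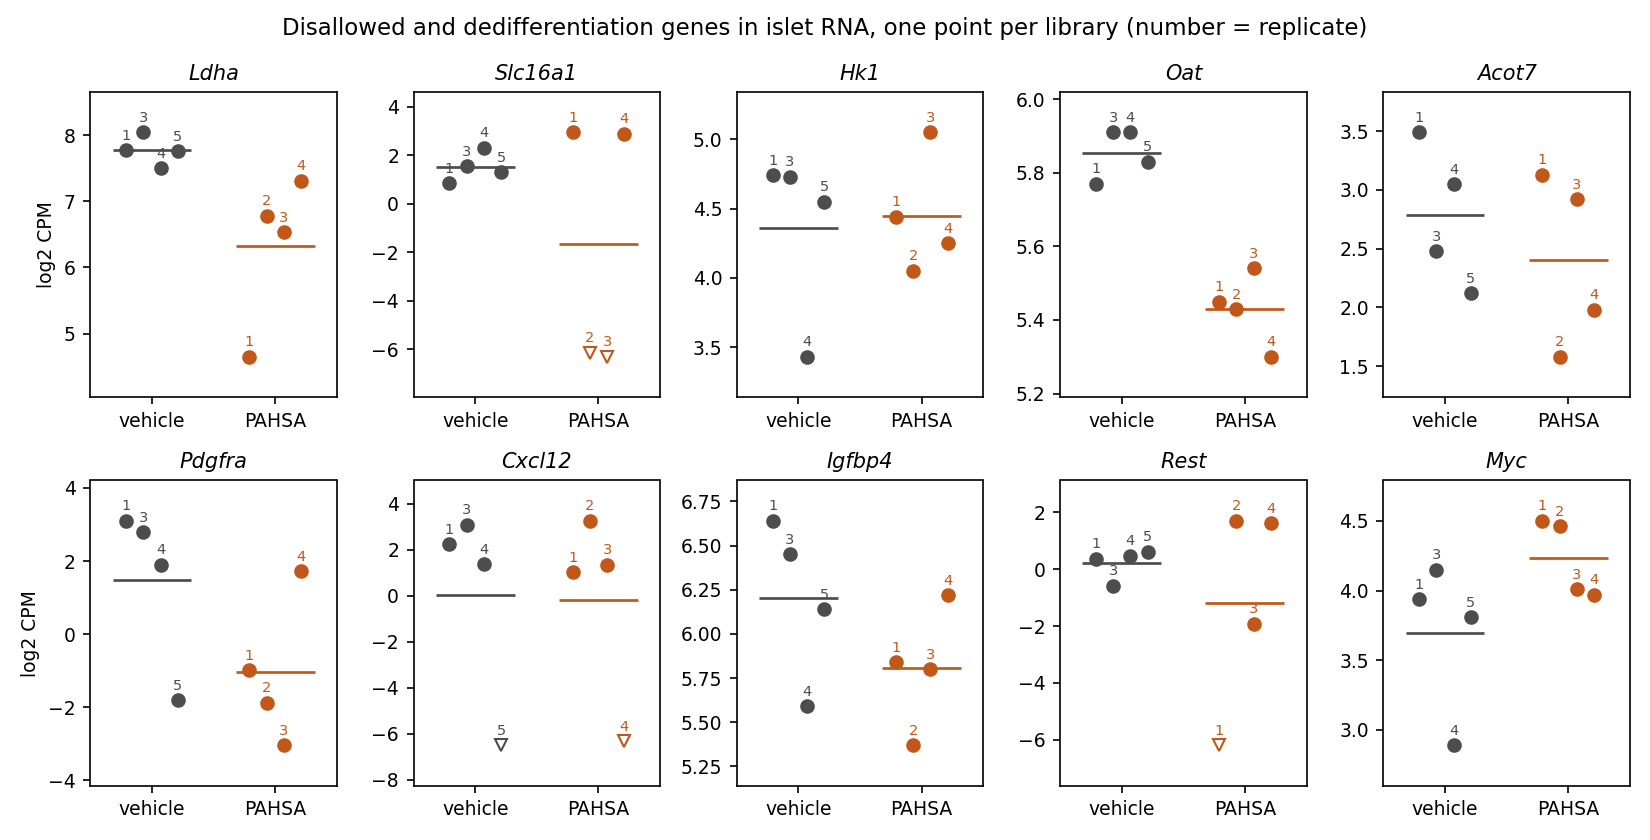
Log2 CPM of the 10 genes in each library (points, numbered by replicate), with the group mean as a bar. Open triangles are libraries at the lowest value of their column, which stands for 0 estimated counts. Ldha and Oat are the 2 genes in which the groups do not overlap.

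The other lactate genes split. Ldhb, which encodes the other main subunit and favours pyruvate, averaged 2.36 ± 0.22 log2 CPM with vehicle against 2.31 ± 0.38 with PAHSA (SD, n = 4), a difference of -0.04 (SE 0.37). Within a library Ldha exceeded Ldhb by 5.09 to 5.70 on the log2 scale in vehicle and by 2.77 to 4.69 in PAHSA, a comparison chosen after the values were seen. The lactate exporter gene Slc16a3, which encodes MCT4, was at 4.98, 4.38, 4.38 and 3.93 log2 CPM in vehicle and 0.25, 3.17, 3.08 and 3.63 in PAHSA. Its groups did not overlap and its low library was again PAHSA replicate 1. It differed by -1.89 (SE 0.64; limma adjusted p = 0.671). Bsg, the chaperone that carries these transporters to the membrane, differed by -0.19 (SE 0.08), and Mpc2, a subunit of the mitochondrial pyruvate carrier, by 0.34 (SE 0.13), each with groups that did not overlap. Of the 9 tested relatives in lactate and hexose handling 4 were higher and 5 lower, with a median of -0.04 and 0 past the threshold.

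Slc16a1 (ENSMUSG00000032902, chromosome 3 from 104638668 to 104658462), which encodes MCT1, was low and uneven. It was at 0.85, 1.55, 2.32 and 1.31 log2 CPM in vehicle, or 63 to 180 estimated counts. In PAHSA replicates 1 and 4 it was at 2.95 and 2.89, above every vehicle library, with 282 and 296 estimated counts. In PAHSA replicates 2 and 3 it was at the lowest value of the column, with 0 estimated counts, below every vehicle library. A mean difference of -3.16 therefore describes no single PAHSA library, and the exact permutation p was 0.429. It was -1.66 and -1.61 without PAHSA replicate 2 or 3, and -4.70 and -4.68 without PAHSA replicate 1 or 4. The spans of Gm43581 and Gm43585 overlap that of the gene, and whether any reads are shared was not tested.

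Markers of stellate cells, fibroblasts and pericytes were mostly lower in PAHSA, though no tested marker separated the groups. Of 12 such markers 9 were in the table and 7 were tested. Of the tested markers 6 were lower in PAHSA, 1 of them at an unadjusted limma p under 0.05. The summed levels of the 9 overlapped, at 66.2 to 246 CPM in vehicle and 25.9 to 112 CPM in PAHSA. None of the 9 was at the lowest value in every library, while Lum was there in PAHSA replicates 2 and 4. The mean of the 9 markers was 1.98 to 3.59 log2 CPM in vehicle and 0.15 to 1.49 in PAHSA. It separated the groups as Ldha did, with PAHSA replicate 1 lowest in both. This mean takes in Lum at -6.15 and -6.32 log2 CPM, the lowest values, in PAHSA replicates 2 and 4. Whether the mean separates the groups without Lum was not tested. With this mean as a covariate Ldha differed by -0.15 (SE 0.61), Pdgfra by 0.20 (SE 2.05) and Igfbp4 by 0.17 (SE 0.36), and Oat by -0.50 (SE 0.22). Because the marker mean itself separated the groups, this fit cannot tell it apart from the treatment. With the acinar mean as a covariate Ldha was at -1.71 (SE 0.56), Oat at -0.35 (SE 0.16), Pdgfra at -4.59 (SE 1.32) and Igfbp4 at -0.82 (SE 0.22).

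**Figure D4:**
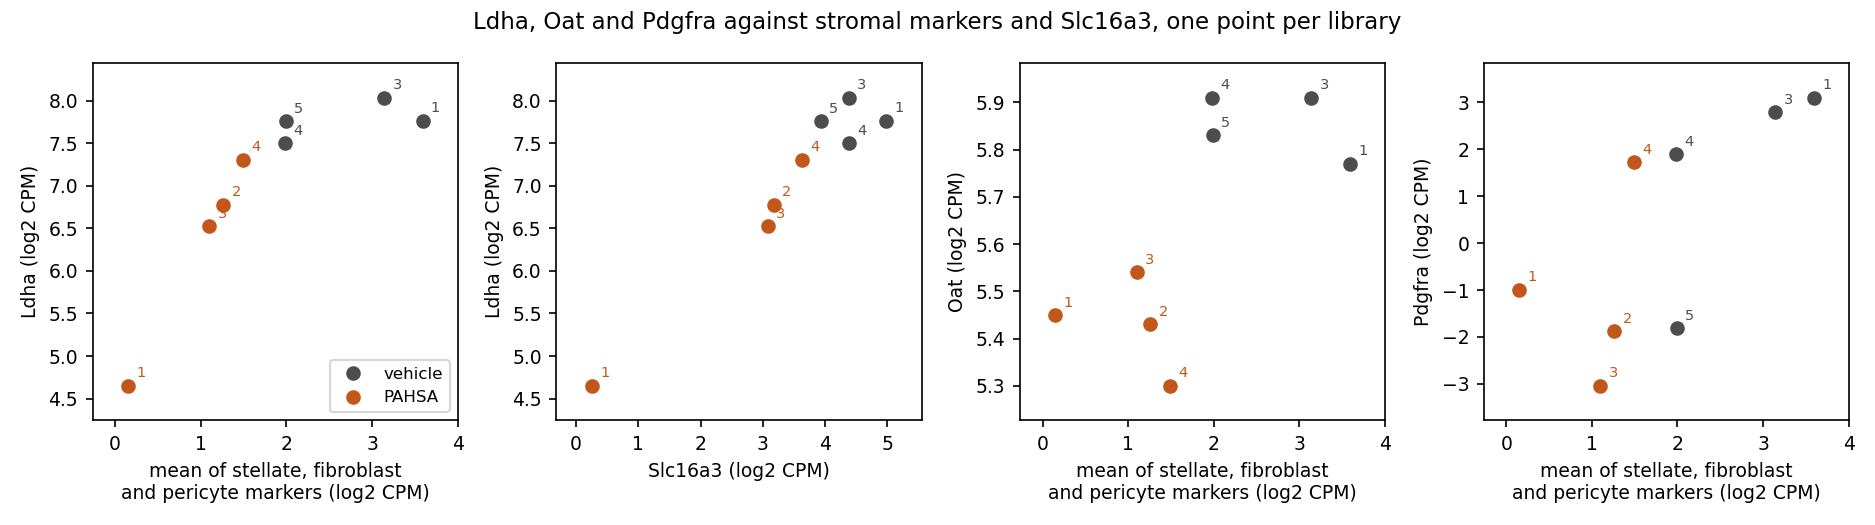
Ldha, Oat and Pdgfra in log2 CPM (vertical axes) against the mean of 9 stellate, fibroblast and pericyte markers or against Slc16a3, also in log2 CPM. Each point is a library, numbered by replicate. PAHSA replicate 1, at 4.65 for Ldha, is lowest on both axes of the first 2 panels, while Oat shows 2 separate groups.

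Hk1 (ENSMUSG00000037012, chromosome 10 from 62268855 to 62379908), a hexokinase of high affinity, was at 4.74, 4.73, 3.43 and 4.55 log2 CPM in vehicle and 4.44, 4.05, 5.05 and 4.25 in PAHSA. Vehicle replicate 4 was lowest. The other vehicle libraries lay inside the PAHSA range, below PAHSA replicate 3 and above PAHSA replicates 1, 2 and 4. The difference was 0.08 (SE 0.33, 95% confidence interval -0.65 to 0.82; limma adjusted p = 0.969), and it was -0.23 without vehicle replicate 4 and -0.12 without PAHSA replicate 3. The span of its antisense neighbour Hk1os overlaps that of Hk1, and the library kit does not mark the strand. Whether any reads are shared was not tested. Hk2, another hexokinase of high affinity, had a mean of -0.26 log2 CPM in vehicle, where replicate 1 alone reached 2.54, and -2.05 in PAHSA, and was not tested.

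Oat (ENSMUSG00000030934, chromosome 7 from 132557478 to 132576398) encodes ornithine aminotransferase, a mitochondrial enzyme that links ornithine with glutamate and proline. It was at 5.77, 5.91, 5.91 and 5.83 log2 CPM in vehicle and 5.45, 5.43, 5.54 and 5.30 in PAHSA. No other member was as even within a group, with an SD of 0.07 in vehicle and 0.10 in PAHSA. The groups were apart by 0.23, and the difference was -0.42 (SE 0.13, 95% confidence interval -0.70 to -0.15; limma adjusted p = 0.671; exact permutation p = 0.0286), 1.34-fold higher in vehicle. Leaving out any 1 library kept it between -0.46 and -0.38. The span of Fgfr2 overlaps that of Oat on the same strand, and whether any reads are shared was not tested. Of 6 tested relatives in ornithine metabolism 4 were higher and 2 lower with a median of 0.02, among them Odc1, which commits ornithine to polyamines, at -0.32 (SE 0.12), and Aldh18a1, which makes the precursor of proline and ornithine, at 0.16 (SE 0.12). Neither passed the threshold.

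Acot7 (ENSMUSG00000028937, chromosome 4 from 152178134 to 152271855), a thioesterase that splits long-chain acyl-CoA, varied as much within the groups as between them. It was at 3.49, 2.48, 3.05 and 2.12 log2 CPM in vehicle and at 3.13, 1.58, 2.92 and 1.98 in PAHSA. The groups overlapped, with a range of 2.12 to 3.49 in vehicle and 1.58 to 3.13 in PAHSA. The difference was -0.38 (SE 0.47, 95% confidence interval -1.43 to 0.66; limma adjusted p = 0.890). The spans of Gm13096 and Gm27500 overlap that of Acot7. Gm42802, Gm42803 and Mir7025 likewise overlap the span of Pdgfra, and Mir5098 that of Rest. Whether any reads are shared was not tested there either. Leaving out 1 library moved the Acot7 difference between -0.62 without PAHSA replicate 1 and -0.11 without PAHSA replicate 2. It was -0.14 without vehicle replicate 1, -0.24 without PAHSA replicate 4 and -0.60 without vehicle replicate 5. Among 8 tested relatives, 5 were higher and 3 lower with a median of 0.09. The 2 with the smallest p were Acot2 of the mitochondria, at -1.36 (SE 0.83), and Acot11, at 0.39 (SE 0.24).

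Pdgfra (ENSMUSG00000029231, chromosome 5 from 75152292 to 75198215) encodes a receptor of platelet-derived growth factors that marks fibroblasts and other stromal cells. It was at 3.10, 2.79, 1.90 and -1.81 log2 CPM in vehicle and -0.99, -1.88, -3.04 and 1.73 in PAHSA. In estimated counts that was 302.3, 283.9, 134.7 and 12.4 against 17.9, 9.2, 4.3 and 131.5. Vehicle replicate 5 lay with the low PAHSA libraries and PAHSA replicate 4 with the high vehicle libraries, so the groups overlapped. The difference was -2.54 (SE 1.31, 95% confidence interval -5.43 to 0.35; limma adjusted p = 0.714; exact permutation p = 0.114). On log2(CPM + 1) it was -1.41. The ligand gene Pdgfa went the other way, at 4.25, 4.50, 4.61 and 3.64 log2 CPM in vehicle and 5.23, 4.70, 5.04 and 4.82 in PAHSA. Its groups did not overlap and differed by 0.69 (SE 0.24; limma adjusted p = 0.671). Pdgfrb, the receptor of pericytes, differed by -0.29 (SE 0.79) and Pdgfb by -0.70 (SE 0.64), so that 1 of 4 tested genes of this list was higher and 3 were lower, with a median of -0.22.

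Cxcl12 (ENSMUSG00000061353, chromosome 6 from 117168535 to 117181367), a chemokine of stromal and vessel cells, was at 2.23, 3.09 and 1.38 log2 CPM in vehicle replicates 1, 3 and 4 and at 1.02, 3.25 and 1.35 in PAHSA replicates 1 to 3. Vehicle replicate 5 and PAHSA replicate 4 each had 0 estimated counts, at the lowest value of their columns. Where it was detected, 94 to 349 estimated counts in vehicle stood beside 74 to 339 in PAHSA. The mean difference of -0.22 moved with nearly every library, from -2.41 without vehicle replicate 5 to 1.83 without PAHSA replicate 4. It was 0.50, 0.79 and 0.22 without vehicle replicates 1, 3 and 4, and -0.62, -1.36 and -0.73 without PAHSA replicates 1, 2 and 3. Its scavenging receptor gene Ackr3 differed by 0.10 (SE 0.26) and Dpp4, a protease that trims the chemokine, by 0.09 (SE 0.15). Cxcr4 was listed too, but it was not among the genes of the deposited table and so was not analysed.

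Igfbp4 (ENSMUSG00000017493, chromosome 11 from 99041244 to 99054392) encodes a secreted protein that binds insulin-like growth factors and holds them from their receptor. It was at 6.64, 6.45, 5.59 and 6.14 log2 CPM in vehicle and 5.84, 5.37, 5.80 and 6.22 in PAHSA. The groups overlapped. The difference was -0.40 (SE 0.24, 95% confidence interval -0.93 to 0.13; limma adjusted p = 0.748), and it was -0.25 without vehicle replicate 1 or without PAHSA replicate 2, and -0.60 without vehicle replicate 4. Beside it, Igfbp5, another binding protein, differed by -1.19 (SE 0.49) and Igf2r, the receptor that clears IGF2, by -0.59 (SE 0.26), both with overlapping groups. Igf1r, the signalling receptor, averaged 6.72 ± 0.22 log2 CPM with vehicle against 6.70 ± 0.34 with PAHSA (SD, n = 4). Of 8 tested genes of this list 3 were higher and 5 lower, with a median of -0.15 and 0 past the threshold.

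Rest (ENSMUSG00000029249, chromosome 5 from 77265491 to 77286432) encodes a repressor that keeps neuronal genes silent outside neurons and is absent from mature endocrine cells. It was at 0.37, -0.58, 0.48 and 0.62 log2 CPM in vehicle and -6.19, 1.70, -1.92 and 1.61 in PAHSA. The vehicle libraries, with 27 to 69 estimated counts, lay between 2 PAHSA libraries at 0 and 10 and 2 at 115 and 121. The mean difference of -1.42 was 0.24 without PAHSA replicate 1 and -2.39 or -2.36 without PAHSA replicate 2 or 4, and the exact permutation p was 0.514. Of 10 tested genes of its corepressor complexes 6 were higher and 4 lower with a median of 0.14. The 2 with the smallest p were Kdm1a, a histone demethylase, at 0.51 (SE 0.21) and Rcor3 at 0.63 (SE 0.27). Of 17 neuroendocrine genes that REST represses in other cells 9 were higher and 8 lower with a median of 0.01. Syt4, a synaptotagmin of secretory vesicles, had 8.41, 8.50, 8.42 and 8.18 log2 CPM in vehicle and 7.63, 7.77, 7.89 and 8.12 in PAHSA, with groups that did not overlap. It differed by -0.52 (SE 0.12; limma adjusted p = 0.671), and Vgf, a granule peptide precursor, by -0.46 (SE 0.17).

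Myc (ENSMUSG00000022346, chromosome 15 from 61985391 to 61990374), a transcription factor of growth and division whose excess costs beta cells their maturity, was the member with the largest positive difference. It was at 3.94, 4.15, 2.89 and 3.81 log2 CPM in vehicle and 4.50, 4.46, 4.01 and 3.97 in PAHSA. PAHSA replicates 1 and 2 lay above every vehicle library, and replicates 3 and 4 inside the vehicle range. The difference was 0.54 (SE 0.31, 95% confidence interval -0.14 to 1.21; limma adjusted p = 0.735; exact permutation p = 0.114), and 0.27 without vehicle replicate 4. Its partner Max averaged 5.31 ± 0.21 log2 CPM with vehicle against 5.34 ± 0.35 with PAHSA (SD, n = 4), and in the list of partners and relatives 4 were higher and 4 lower of 8 tested. Mga, a large repressor that also binds MAX, differed by -0.42 (SE 0.17), and Mxd1, a MAX partner that opposes MYC, by -0.20 (SE 0.22). Of 17 genes of ribosome biogenesis and growth that MYC can drive 8 were higher and 9 lower with a median of -0.02. Ccnd2, the main D-type cyclin of beta cells, averaged 8.66 ± 0.08 log2 CPM with vehicle against 8.98 ± 0.15 with PAHSA (SD, n = 4), with groups that did not overlap, a difference of 0.32 (SE 0.09; limma adjusted p = 0.671).

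A further 23 disallowed and dedifferentiation genes were listed beside the members, of which 19 were in the table and 12 were tested. There 9 were lower and 3 higher with a median of -0.83, and 1 was lower at an unadjusted p under 0.05. That was Zfp36l1, an RNA-binding protein gene, at 1.02, 0.43, 1.94 and 1.70 log2 CPM in vehicle and -2.49, 0.32, -1.10 and 0.22 in PAHSA, a difference of -2.04 (SE 0.85; limma adjusted p = 0.671). Like Pdgfra, Zfp36l1 passed the filter on low values through its vehicle libraries, with means of 1.28 and -0.76 log2 CPM. With a PAHSA mean below the filter it could pass only by being higher in vehicle, so it is no support for the list. The detoxifying enzyme gene Mgst1 differed by -1.05 (SE 0.60) and the progenitor and duct factor gene Sox9 by -0.86 (SE 0.52). Over genes with a mean above 2 log2 CPM the median of this list was -0.26. It was -0.59 without vehicle replicate 1, PAHSA replicate 1 or PAHSA replicate 3, and -1.07 without PAHSA replicate 4. Several of these genes are also used by stromal, duct or immune cells. Duct markers were lower in 7 of 9 tested genes, with Spp1 at -0.73 (SE 0.17) and Muc1 at -1.15 (SE 0.28), and their summed level was 4240 to 6180 CPM in vehicle and 3470 to 4430 CPM in PAHSA. Macrophage and dendritic cell markers were lower in 4 of 5, with sums of 253 to 632 CPM in vehicle and 178 to 405 CPM in PAHSA. Endothelial markers were lower in 4 of 4, with sums of 40.6 to 75.6 CPM and 32.9 to 47.9 CPM, and Pecam1 at -0.16 (SE 0.26). The part of these cells in the values of the members was not tested beyond the fits with the stellate and acinar means.

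On the side of the mature beta cell, 16 of 22 tested genes were higher and 6 lower with a median of 0.13, and 0 passed the threshold. Ucn3, a hormone of mature beta cells, differed by 0.77 (SE 0.15), Foxa2, a factor of islet development, by 0.44 (SE 0.17) and Mafa, which drives insulin transcription, by 0.40 (SE 0.16), while the prohormone convertase gene Pcsk1 stood at -0.39 (SE 0.15). Of the insulin genes, Ins1 stood at 0.08 (SE 0.14) and Ins2 at 0.18 (SE 0.13). Each of these 6 had a limma adjusted p of 0.671 or above.

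For each of the 7 tested members the 3 genes most like it were taken. Candidates were the protein-coding genes among the 12231 tested, without predicted genes and RIKEN clones. With so many candidates, a gene closer to a member than any other member was near certain to be found. Likeness was measured by Pearson's r of log2 CPM over the 8 libraries, as a description in which group, depth and tissue makeup are shared. Ldha was most like P4hb (r = 0.986), Adm (0.985) and Aebp1 (0.985), which differed by -0.33, -3.16 and -3.18. Oat was most like Arf3 (0.954), Dse (0.930) and Camk2d (0.923). With deviations from the group means the r of Oat was 0.861 with Arf3, 0.731 with Dse and 0.523 with Camk2d. For Hk1 these genes were Rragc (0.971), Exoc5 (0.97) and Gpbp1 (0.959), for Acot7 Scin (0.964), Mrpl48 (0.946) and Suz12 (0.942), and for Pdgfra Car12 (0.934), Csk (0.927) and Tpm4 (0.925). Igfbp4 was most like Odr4 (0.982), Capn7 (0.964) and Zfp449 (0.947), and Myc like Galnt9 (0.977), Rbm15 (0.965) and Nrip2 (0.964). Between members themselves the highest r was 0.82, of Ldha and Rest, where the rank correlation was 0.19 and PAHSA replicate 1 was lowest for both. Ldha and Oat had r = 0.60 (rank correlation 0.69), Ldha and Pdgfra 0.51 (0.71), Ldha and Igfbp4 0.46 (0.64), and Pdgfra and Igfbp4 0.62 (0.69). These 4 genes also followed the stellate, fibroblast and pericyte marker mean. Over the same 8 libraries r was 0.85 for Ldha, 0.72 for Pdgfra, 0.71 for Igfbp4 and 0.69 for Oat. The acinar mean had r = 0.75 with Oat, 0.29 with Ldha, -0.14 with Pdgfra and -0.26 with Igfbp4. With the endothelial mean the rank correlation was 0.81 for Pdgfra, 0.76 for Ldha, 0.57 for Oat and 0.52 for Igfbp4. With the stellate mean it was 0.74, 0.98, 0.62 and 0.67 for the same genes in that order. Since the stellate and endothelial means separated the groups, their values carry the difference between groups as well.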

How the data were processed

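RNA-seq of 4 vehicle and 4 PAHSA islet libraries was analysed from a deposited table of log2 CPM for 13725 Ensembl genes in 8 columns, each matched to a library by name, and 0 columns were not used. Per the submitters' processing notes the authors used kallisto and limma. Their versions, the genome build and the annotation were not given in the sources used here. Libraries were made with Nextera XT, per the labels' protocols. The lowest value of each column was taken as 0 counts with 0.5 added, as limma adds, from which library sizes and estimated counts were recovered. Of these, 47.8% to 51.5% per library came within 0.01 of an integer, so no count test was run. The recovered counts were whole in all 8 libraries for 7 members, but in 2 libraries for Ldha and in none for Pdgfra and Igfbp4.

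Symbols and positions came from GENCODE M21 (GRCm38), with 56 identifiers unmatched, and exon lengths are the union of its basic exons. Genes with a mean log2 CPM above 0 were tested with limma 3.58.1 in R 4.3.3 (lmFit, eBayes with trend), group as the only term, two-sided, adjusted by Benjamini-Hochberg over 12231 genes, threshold 0.05. The exact permutation test used all 70 assignments of libraries. The script was tested on simulated data. Named genes were the 10 members, the 2 genes of each listed group with the smallest p and a fixed set of relatives. For the other disallowed genes and for beta cell maturity 3 were taken. The 3 protein-coding genes most like each tested member were added, without predicted genes and RIKEN clones. The members and lists were chosen with earlier results of these data known. Figures were drawn with matplotlib 3.10.9. Results that need an item withheld for evaluation are not reported here.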

Additional observations from a re-analysis of the deposited data

Results flagged for a closer look

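In the 2 groups of 4 libraries, 82 named genes were checked for a library standing apart from the other 3, by Dixon's 95% critical value for the gap over the range. This was so in 13 of 164 cases, where chance gives about 1 in 20 for a single case. Some of the genes were chosen for their likeness to members, so the cases are not independent and their count is no test. Among the members it was so once, for Hk1, with vehicle replicate 4 at 3.43 log2 CPM against 4.55 to 4.74 in the others. Vehicle replicate 4 also stood apart for Ins1 (15.12 against 14.62 to 14.68) and Ins2 (16.62 against 16.22 to 16.27), and for Rragc (6.74), Gpbp1 (5.47) and Galnt9 (3.33), genes named for their likeness to Hk1 or Myc. PAHSA replicate 1 stood apart for Slc16a3 (0.25 against 3.08 to 3.63) and Bsg (9.36 against 9.58 to 9.59). PAHSA replicate 4 stood apart for S100b (-1.09) and Tpm4 (7.60), and PAHSA replicate 3 for Rragc (7.63). Vehicle replicate 1 stood apart for Camk2d (6.36) and vehicle replicate 5 for Car12 (-0.03).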

How the results depend on the processing

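Ldha, Oat and Acot7 were lower and Myc was higher in PAHSA under all 20 alternatives run for each, and none of the 7 tested members passed an adjusted p of 0.05 in any. Ldha ranged from -1.87 to -0.15 and Oat from -0.50 to -0.35. The count of genes past the threshold was 0 in every setting, while 596 to 1021 genes had an unadjusted p under 0.05. With the stellate mean as a covariate 222 genes were lower at that level, against 525. Hk1 changed sign with arrayWeights (-0.08), with the acinar mean as a covariate (-0.03), without the libraries numbered 4 (-0.16, chosen after seeing the data) and over the fits leaving out 1 library (-0.23 to 0.21). With the stellate mean as a covariate Pdgfra was at 0.20 and Igfbp4 at 0.17. Without the libraries numbered 4 Igfbp4 was at -0.74, Acot7 at -0.15, Cxcl12 at 2.27 and Myc at 0.36. The median of the lactate and hexose relatives was 0.10 without PAHSA replicate 1 and -0.17 without PAHSA replicate 4, and that of the ornithine relatives 0.15 without PAHSA replicate 2. Over deviations from the group means the likeness of Oat was 0.861 with Arf3, 0.731 with Dse and 0.523 with Camk2d. With a replicate block over the numbers 1, 3 and 4, which both groups carry, Ldha was at -1.60, Oat at -0.43, Pdgfra at -3.37, Igfbp4 at -0.27, Acot7 at -0.33, Hk1 at 0.28 and Myc at 0.50, and 0 genes passed. Deviations of same-numbered libraries correlated at -0.02, -0.017 and -0.022, within the -0.054 to 0.047 of all pairs across the groups. The labels do not say whether same-numbered libraries were handled together, and these correlations cannot settle it. For the 3 members below the filter, leaving out 1 library gave -4.70 to -1.61 for Slc16a1, -2.41 to 1.83 for Cxcl12 and -2.39 to 0.24 for Rest. The cause was not tested in any of these cases. Slc16a1, Cxcl12, Rest and Pdgfra had the fewest estimated counts of the members. By summed counts, the libraries with 0 counts for a member were of differing depth. Cxcl12 was at 0 in vehicle replicate 5, which had the most, 45236238, and in PAHSA replicate 4, with 38872047. Slc16a1 was at 0 in PAHSA replicates 2 and 3, with 36046022 and 39359123. Rest was at 0 in PAHSA replicate 1, with 35356278, while the fewest of any library were 34461742. Whether depth bears on these values was not tested.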

Other observations

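Some genes of the wider list were on in some libraries and nearly off in others of the same group, as were Slc16a1, Cxcl12 and Rest. The genes in this paragraph were chosen after their values were seen. Neurog3, the factor that starts endocrine cell formation, was at 2.42, 2.40 and 2.67 log2 CPM in vehicle replicates 1, 3 and 5 and at -3.37 in replicate 4. In PAHSA it was at 4.34, 1.76, -3.14 and 3.38 in replicates 1 to 4. Smad3, which carries signals of transforming growth factor beta, was at 2.93, 3.05 and 2.45 in PAHSA replicates 2, 3 and 4 and at the lowest value, -6.19, in replicate 1. Hkdc1, a further hexokinase, was at the lowest value in vehicle replicates 3 and 4 and in PAHSA replicate 2, and at 2.87 and 2.52 in vehicle replicate 1 and PAHSA replicate 3. Aldh1a3, an enzyme of retinoic acid synthesis that marks failing beta cells, was at 2.90, 1.09, 2.74 and 0.84 in vehicle and at 2.54, 2.23, 2.05 and -2.52 in PAHSA.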
